A study of Mus musculus with 20 samples.

Results

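The livers of adult male mice carried by dams at 10 °C were compared, transcript by transcript, with the livers of males carried by dams at 18 °C. Each group held 5 animals with 1 array per animal, out of 20 arrays at 4 gestation temperatures. The transcripts described are transcript clusters, which are probe groups for 1 gene locus each. Each carries a gene symbol, and its mean over the 20 arrays lay above the mean of the negative control rows. The limit was a log2 value of 4.75, the highest mean of the negative control rows on any array. Of 22206 transcript clusters, 19572 were named, and 9413 of these, or 48.1%, passed the limit and are the members below. The 10 °C against 18 °C difference played no part in that choice. The members just inside the limit were Fam219b at 4.747, Prr5 at 4.747 and Dsg1a at 4.748, and H1f1 at 4.746, Lmnb1 at 4.746 and Obox7 at 4.744 lay just outside it.

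All animals were C57BL/6NCr, an inbred strain, male and 4 to 5 months old. Dams of the 10 °C group and of the 18 °C group lived at their temperature for 2 weeks before mating and throughout pregnancy, and the sires were kept there for 3 days. On the day of birth each dam and litter moved to 23 °C, and the offspring stayed at 23 °C on standard chow and water without restriction. The 2 groups of the comparison therefore differ in the temperature before birth, as labelled. The animals of the 23 °C dams, the controls of the study at usual animal house temperature, and of the 30 °C dams, acclimated for 3 weeks, served here for the estimate of spread and for levels set side by side. The study asks whether cold during pregnancy sets the glucose handling of sons, and this comparison asks whether severe and mild cold leave different liver transcripts. Which animals shared a mother, a processing batch, an hour of collection or a meal is not labelled. The p-values thus reflect only how far these arrays scatter, and they would be too small if some animals were siblings.

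Mice below their thermoneutral temperature burn fat and glucose in brown adipose tissue to stay warm, and the liver feeds this by making glucose, fatty acids, lipoproteins and bile acids. In the fed liver, insulin and sugar raise the enzymes of fatty acid synthesis and glycolysis through the transcription factors SREBP1c and ChREBP, while SREBP2 drives cholesterol synthesis when sterols are low. Cholesterol leaves the liver as bile acids, made by a pathway that starts with Cyp7a1, and as free sterol exported by the Abcg5 and Abcg8 pair.

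No transcript cluster differed between the 10 °C and the 18 °C offspring after adjustment. The adjusted p (limma, Benjamini-Hochberg over 22206 clusters) was under 0.05 for 0 clusters, 0% of those tested, and the smallest was 0.224. At an unadjusted p under 0.05, 1799 clusters passed, where 1110.3 would be expected on average with no difference. Clusters that vary together can take the count far from that average, and the excess was not tested. What follows is therefore a description of values, and "higher" or "lower" states the sign of a measured difference, 10 °C minus 18 °C, and no call. Differences are on the log2 scale with limma's standard error (SE), and levels are log2 values as mean ± SD with n = 5. Folds of dim genes are understated by the way the values were made.

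Among the members, 580 were higher and 395 lower in the 10 °C offspring at an unadjusted p under 0.05. These are 6.16% and 4.2% of the members, against 4.31% higher and 3.79% lower over all clusters tested. Together they are 10.4% of the members, the share beside which counts in the lists below are to be read. The ranges of the 2 groups did not overlap for 120 higher and 77 lower members, 1.27% and 0.818%, against 0.752% and 0.666% over all clusters. Of all 9413 members, 5104 were higher and 4309 lower at any p, the background for the list counts by sign below. The median difference over the members was 0.022, with quartiles of -0.132 and 0.175 and a median SE of 0.179. Small differences were thus more often positive, and the large ones more often negative. A difference beyond 1 was positive for 20 members and negative for 48. Beyond 2, Ppp1r3c was the 1 member higher, and Thrsp, Cyp7a1 and Fasn were the 3 lower.

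**Figure D1:**
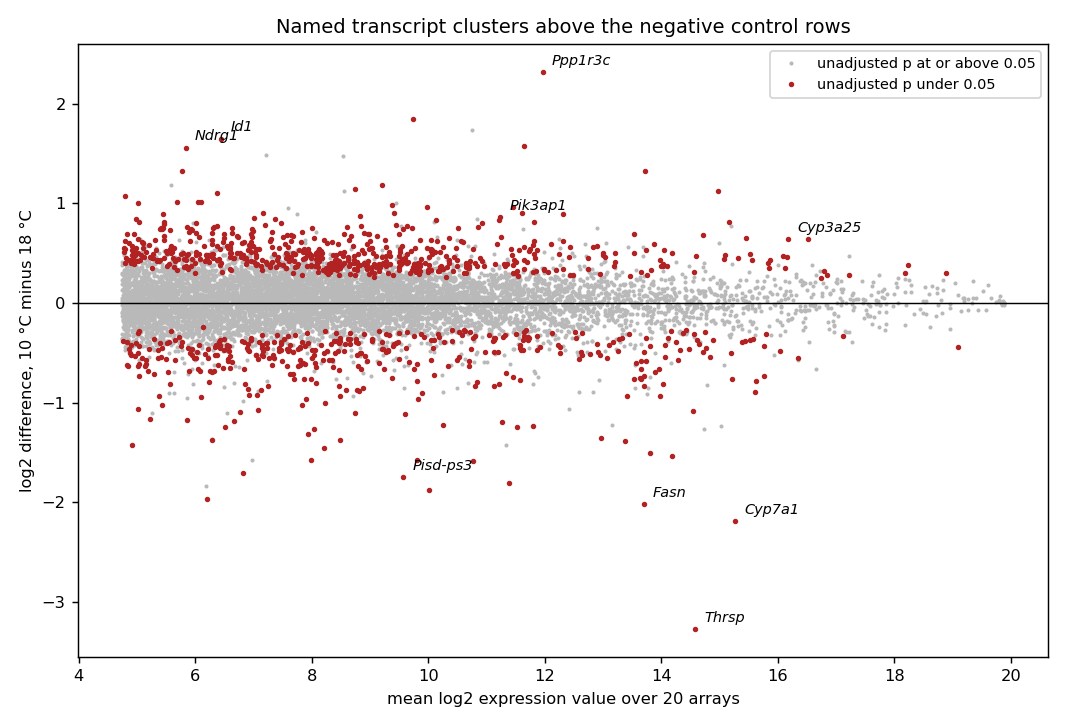
Each point is 1 of the 9413 members, with its mean log2 expression value over 20 arrays on the horizontal axis and its log2 difference, 10 °C minus 18 °C, on the vertical axis, and red points have an unadjusted p under 0.05. Positive differences are more numerous, but Thrsp, Cyp7a1 and Fasn stand below -2 where Ppp1r3c alone stands above 2.

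Measures of the arrays themselves lay close together. Quantile normalisation brings this about in part, so it does not show that the livers were alike. Correlations between any 2 of the 20 arrays ran from 0.987 to 0.993, and 0 pairs held identical values. The 5 array measures, among them the mean of the negative control rows (4.533 ± 0.03 against 4.488 ± 0.07), gave exact two-sided permutation p-values from 0.262 to 0.96 between the groups, and 0.0079 is the smallest that 5 against 5 allows. All 8 hepatocyte markers, such as Alb and Ttr, were members, with a median difference of 0.01. All 9 neutrophil markers analysed lay below the limit, between 2.59 and 4.21. Within its own group, 10 °C animal 6 stood apart (by Dixon's test for 1 outlying value) in 245 members, 2.6%, and 18 °C animal 5 in 132, 1.4%. The other 8 arrays of the comparison did so in 58 to 105 members. Chance alone flags about 5% of members in a group, spread over its 5 animals. The count of 18 °C animal 5 was nearer to those of the other 8 arrays than to that of 10 °C animal 6. List medians and the genes most moved by these 2 animals are also given without them, and without both the members at an unadjusted p under 0.05 numbered 577.

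Among the 12 members with the smallest p on the higher side, a signalling adaptor, a pair of cytochrome P450 enzymes and a glycogen regulator stood out by level or size. Pik3ap1, an adaptor that links receptors to phosphoinositide 3-kinase, had the smallest p of all. Its values in 10 °C animals 2, 4, 5, 6 and 8 were 11.43, 11.70, 11.79, 11.80 and 11.80, and in 18 °C animals 1, 3, 4, 5 and 7 they were 11.11, 10.76, 10.84, 10.56 and 10.99. Every 10 °C animal was above every 18 °C animal, and the difference was 0.86 (SE 0.16, adjusted p = 0.224). The order of animals in each sentence of values below is the same.

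Cyp3a25 and Cyp3a59 are members of the drug- and steroid-oxidising Cyp3a family. Cyp3a25 was at 16.60, 16.64, 16.42, 16.51 and 16.42 in the 10 °C animals and at 16.01, 15.97, 15.99, 15.52 and 15.88 in the 18 °C animals. The groups did not overlap, and the difference was 0.64 (SE 0.15, adjusted p = 0.281). Cyp3a59 was at 12.35, 12.03, 11.89, 12.31 and 11.59 against 11.32, 11.12, 11.15, 11.01 and 11.05, again without overlap, with a difference of 0.90 (SE 0.19). These paralogs are alike in sequence, and whether the probes tell them apart was not tested. Their relative Cyp3a11 differed by 0.05 (SE 0.16).

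Ppp1r3c encodes a subunit that targets protein phosphatase 1 to glycogen and favours glycogen synthesis. Its values were 13.60, 13.16, 12.93, 12.89 and 12.42 in the 10 °C animals and 8.53, 11.54, 10.43, 11.27 and 11.61 in the 18 °C animals. The lowest 10 °C animal was above the highest 18 °C animal. Animal 1 of the 18 °C group was far below the rest, and its low value enlarged the difference. The means were 13 ± 0.43 and 10.68 ± 1.29, a 5.0-fold difference (log2 difference 2.32, SE 0.56, adjusted p = 0.367), and 2.5 without 10 °C animal 6 and 18 °C animal 5.

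The stretch before the start of Ppp1r3c is shown because this gene had the largest positive difference. It holds an E-box (CACGTG, searched on both strands, printed in capitals), 104 bases before the start, the motif that circadian and sugar-responsive factors can bind. The sequence is RefSeq's, build GRCm38.p6, chr19:36736605-36736854, minus strand, the 250 bases before the start, written 5′ to 3′.
Ppp1r3c: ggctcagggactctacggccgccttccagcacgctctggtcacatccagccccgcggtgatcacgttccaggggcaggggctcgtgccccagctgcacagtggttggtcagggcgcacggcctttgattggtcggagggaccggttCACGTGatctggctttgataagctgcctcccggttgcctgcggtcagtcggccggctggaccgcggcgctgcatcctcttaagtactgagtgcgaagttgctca
An E-box lies in the windows of 8.09% of the 27025 genes with a RefSeq window of 250 bases before to 50 bases after a start. A match describes letters and is no evidence of binding.

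Other members with a small p on the higher side were Ddx52, an RNA helicase of ribosome assembly, at 0.69 (SE 0.15), Mllt10, a partner of the histone methyltransferase Dot1l, at 0.63 (SE 0.14), and Axl, a receptor tyrosine kinase, at 0.69 (SE 0.17). Slc23a2, a vitamin C transporter, differed by 0.72 (SE 0.18), Sntb2, a syntrophin, by 0.89 (SE 0.22), Chic2 by 0.75 (SE 0.18) and Herc3 by 0.81 (SE 0.19). Adjusted p-values of these 7 lay between 0.281 and 0.377.

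Members without overlap between the groups and with the largest positive differences included Ndrg1, a stress- and hypoxia-responsive gene, Hsd17b6, a steroid and retinol dehydrogenase, and the transcriptional regulators Id1, Id2, Zfpm1 and Atoh8. Ndrg1 was at 6.55, 6.57, 7.66, 6.58 and 6.01 in the 10 °C animals and at 4.58, 5.52, 5.22, 4.52 and 5.71 in the 18 °C animals. Its difference was 1.56 (SE 0.39, adjusted p = 0.388). Hsd17b6 differed by 1.33 (SE 0.35), with means of 14.28 ± 0.53 and 12.96 ± 0.60, and Zfpm1 by 1.18 (SE 0.30).

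Id1 and Id2 encode inhibitors of basic helix-loop-helix factors. Id1 was at 6.38, 9.61, 7.34, 6.42 and 5.76 against 5.36, 5.07, 5.69, 5.45 and 5.68. The groups only just failed to overlap, and 10 °C animal 4 lay well above the others, so that the difference of 1.65 had an SE of 0.62 (adjusted p = 0.517), and it was 1.03 without animal 4. Id2 differed by 1.12 (SE 0.34) and Atoh8 by 1.01 (SE 0.27). Cln6, a membrane protein of the endoplasmic reticulum, differed by 1.01 (SE 0.36) with 10 °C animal 6 at 8.49 against 6.03 to 6.26 in the other 4, and by 0.54 without that animal.

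On the lower side, the smallest p belonged to Pisd-ps3, a pseudogene of the phosphatidylserine decarboxylase gene Pisd. Its values were 8.28, 7.32, 8.68, 8.22 and 7.65 in the 10 °C animals and 10.05, 9.5, 9.54, 9.83 and 9.98 in the 18 °C animals. The groups did not overlap, with a difference of -1.75 (SE 0.36, adjusted p = 0.281). Leaving out 23 °C animal 23, which is in neither group but shares the estimate of spread, gave an adjusted p of 0.0446. Pisd itself differed by 0.00 (SE 0.17).

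Cyp7a1, whose enzyme limits the rate at which bile acids are made, was at 14.47, 13.99, 12.71, 15.64 and 14.47 in the 10 °C animals and at 17.33, 15.66, 16.77, 16.26 and 16.20 in the 18 °C animals. The groups met without crossing at 10 °C animal 6 and 18 °C animal 3. Animal 5 of the 10 °C group had the lowest value, 12.71, which enlarged the difference. The means were 14.26 ± 1.06 and 16.44 ± 0.63, a 4.55-fold difference (log2 difference -2.19, SE 0.57, adjusted p = 0.388), and -2.58 without 10 °C animal 6 and 18 °C animal 5.

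Lgals1, which encodes the lectin galectin 1, was at 8.48, 8.09, 7.49, 7.35 and 7.38 against 9.79, 8.76, 9.09, 9.32 and 9.08. The groups did not overlap, with a difference of -1.45 (SE 0.37, adjusted p = 0.388). Clec2d, a C-type lectin-related ligand of natural killer cell receptors, was at 13.70, 13.55, 13.34, 12.64 and 12.71 against 14.09, 14.20, 14.42, 14.15 and 13.72. All 10 °C animals were below all 18 °C animals by a narrow margin, and the difference was -0.93 (SE 0.23).

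Mpst, which makes hydrogen sulfide from mercaptopyruvate, differed by -0.66 (SE 0.15), and by -0.45 without 10 °C animal 6 and 18 °C animal 5. Banp, a chromatin-binding protein, differed by -1.10 (SE 0.24), Fhit, a dinucleoside hydrolase, by -0.96 (SE 0.21) and Car14, a carbonic anhydrase, by -0.83 (SE 0.20). Nabp1, a single-stranded DNA-binding protein, differed by -1.0 (SE 0.26), Ggct, an enzyme of glutathione breakdown, by -0.66 (SE 0.17), Gskip by -0.69 (SE 0.18) and the histone gene H2ac8 by -0.68 (SE 0.17). Adjusted p-values of these 8 lay between 0.281 and 0.388. Among members without overlap, the largest negative differences beside those above were Gm14403 at -1.38 (SE 0.40), Pdzk1ip1 at -1.18 (SE 0.38), Atp6v0d2, a proton pump subunit, at -1.02 (SE 0.41), and Clic5 at -0.94 (SE 0.29). Pdzk1ip1 was at -0.70 without 10 °C animal 6 and 18 °C animal 5.

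**Figure D2:**
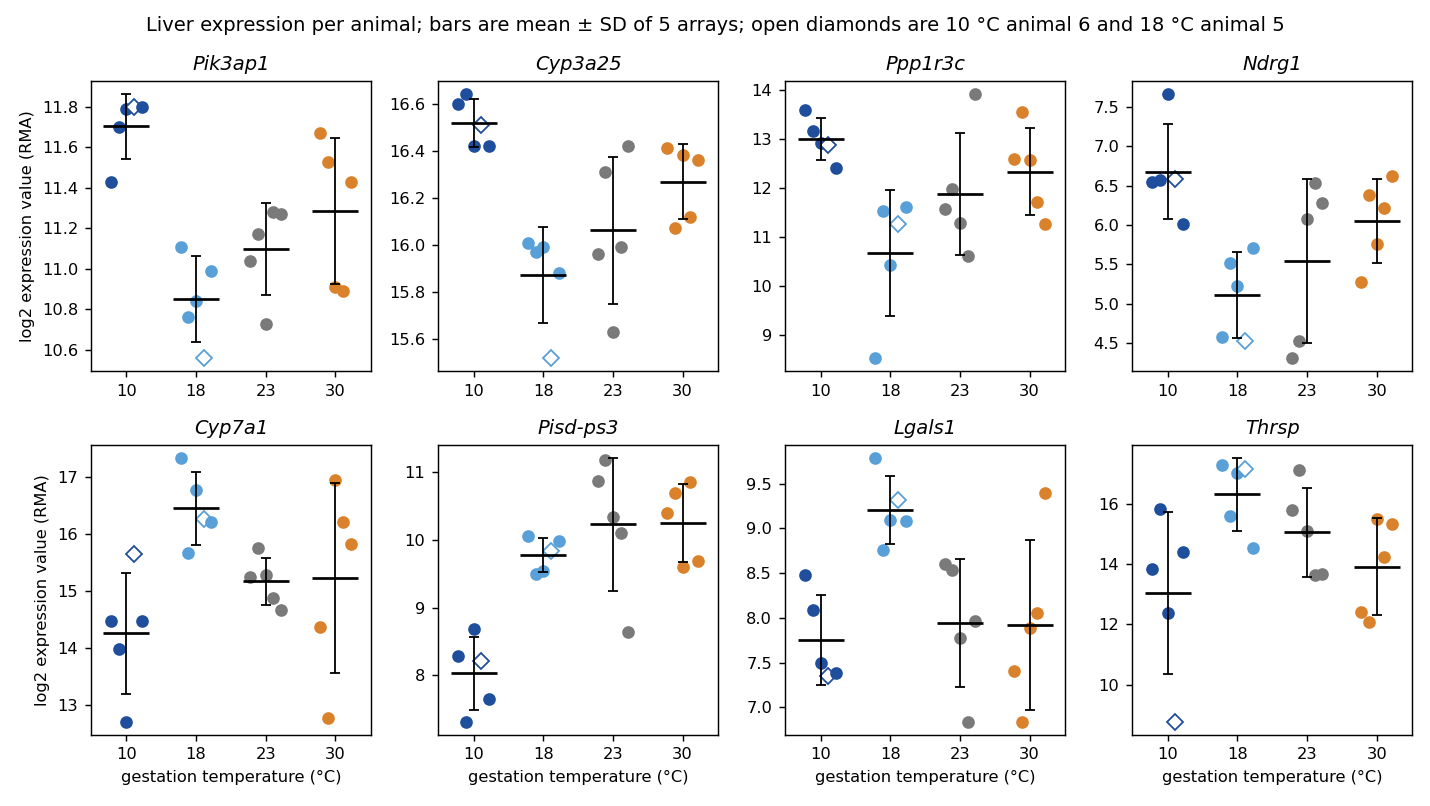
Log2 expression values of 8 members per animal at the 4 gestation temperatures on the horizontal axis, with the mean ± SD of 5 arrays as bars and 10 °C animal 6 and 18 °C animal 5 as open diamonds. The vertical axes differ between panels and do not start at 0. The 10 °C and 18 °C animals do not overlap in 7 of the 8 panels, and in Thrsp they do.

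The 23 °C and 30 °C levels, set beside these, lay between those of the cold groups for some genes and not for others. Pik3ap1 was at 11.71 ± 0.16 at 10 °C, 10.85 ± 0.21 at 18 °C, 11.10 ± 0.23 at 23 °C and 11.29 ± 0.36 at 30 °C. Cyp7a1 was at 15.17 ± 0.41 at 23 °C and 15.22 ± 1.66 at 30 °C, and Ppp1r3c at 11.88 ± 1.25 and 12.34 ± 0.89. In these 3 genes the 10 °C and the 18 °C means were the extremes.

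For Pisd-ps3 the 10 °C mean of 8.03 ± 0.54 stood apart, with 9.78 ± 0.25 at 18 °C, 10.22 ± 0.98 at 23 °C and 10.24 ± 0.57 at 30 °C. For Clec2d it was again the 10 °C mean, 13.19 ± 0.49, with 14.12 ± 0.25, 14.16 ± 0.46 and 14.46 ± 0.34 at the warmer temperatures. For Lgals1 it was the 18 °C mean, 9.21 ± 0.38, with 7.76 ± 0.50 at 10 °C, 7.94 ± 0.71 at 23 °C and 7.92 ± 0.95 at 30 °C. These levels are descriptions. Among neighbours in the order of the 4 means of these 6 genes, the mean ± SD ranges overlapped, except those of 10 °C and 18 °C for Pisd-ps3 and Clec2d and those of 18 °C and 23 °C for Lgals1.

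Over the 20 arrays the members whose values followed Pik3ap1 most closely by Pearson's r were Tspan12 (0.862), Fkbp15 (0.813), Abcc2 (0.807), Abcg5 (0.807) and Slc6a9 (0.805). Those most like Cyp7a1 were Clic5 (0.773), Parp12 (0.761), Gpt2 (0.737), Mrpl30 (0.720) and Cyp8b1 (0.715). All points share the same 20 arrays and normalisation, and the coefficients are given as a description.

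Bile acid synthesis had 15 members, of which 5 were higher and 10 lower, with a median difference of -0.05 against 0.02 over all members. At an unadjusted p under 0.05 there were 2 higher and 2 lower. Beside Cyp7a1, Akr1d1, a steroid reductase of the pathway, differed by -0.76 (SE 0.28), Amacr, a racemase of the side chain, by 0.46 (SE 0.16) and Hsd3b7, a sterol dehydrogenase, by 0.39 (SE 0.17). Akr1d1 was at -0.49 without 10 °C animal 6. Cyp8b1, which sets the share of cholic acid, was at 13.02, 12.34, 11.33, 13.47 and 12.70 against 13.32, 13.20, 13.02, 13.81 and 13.99. These groups overlapped, and the difference was -0.89 (SE 0.47, adjusted p = 0.649).

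Of 17 members of bile acid transport and the FXR axis, 14 were higher and 3 lower, with a median of 0.20. Abcg5 and Abcg8, whose products together export sterols into bile, differed by 0.96 (SE 0.43) and 0.81 (SE 0.31). Atp8b1, a lipid flippase of the bile canaliculus, differed by 0.37 (SE 0.17). These were the 3 members at an unadjusted p under 0.05, all higher. Without 10 °C animal 6 and 18 °C animal 5 the list had 11 higher and 6 lower, and the median was 0.13 without 10 °C animal 6 alone.

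All 20 members of cholesterol synthesis were lower in the 10 °C offspring, with a median of -0.72. Of these, 3 reached an unadjusted p under 0.05, namely Sqle, the squalene epoxidase, at -1.57 (SE 0.69), Mvd, the mevalonate decarboxylase, at -1.37 (SE 0.57), and Fdps, the farnesyl diphosphate synthase, at -1.23 (SE 0.58). Sqle was at 8.97, 10.45, 9.56, 6.77 and 10.12 against 10.82, 10.56, 10.70, 11.36 and 10.26. Animal 6 of the 10 °C group was lowest for Sqle, Mvd and Fdps alike, and its list median against the mean of the 10 arrays was -2.05. The other 10 °C animals had list medians of -0.25 to 0.50. Leaving out 10 °C animal 6, Sqle was at -0.96, Mvd at -0.87 and Fdps at -0.74. The list median without it was -0.27 and 0 members passed, and without 18 °C animal 5 as well it was -0.19 with 18 of 20 lower. Srebf2, the regulator of the pathway, differed by -0.20 (SE 0.22).

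Fatty acid and triglyceride synthesis had 20 members, 18 lower and 2 higher, with a median of -0.54. At an unadjusted p under 0.05 there were 9 lower and 0 higher, against 3.79% and 4.31% over all clusters. Thrsp, a promoter of fatty acid synthesis, had the largest difference of any member. Its values were 13.83, 15.84, 12.37, 8.77 and 14.40 in the 10 °C animals and 17.30, 15.60, 17.01, 17.14 and 14.53 in the 18 °C animals. The groups overlapped, with 10 °C animal 6 far below the rest. The difference was -3.27 (SE 0.99, adjusted p = 0.44), and -2.0 without 10 °C animal 6 and 18 °C animal 5.

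Fasn, the fatty acid synthase, was at 13.41, 14.31, 12.18, 10.25 and 13.80 against 15.30, 14.60, 15.10, 16.26 and 12.79. The groups overlapped only through 18 °C animal 7, and the difference of -2.02 (SE 0.71) was -1.02 without 10 °C animal 6 and 18 °C animal 5. Lpin1, a phosphatidate phosphatase, differed by -1.81 (SE 0.66), Acly, which supplies acetyl-CoA, by -1.53 (SE 0.60), and Elovl6, a fatty acid elongase, by -1.50 (SE 0.55). Me1, which supplies NADPH, differed by -1.08 (SE 0.44), Gpam, the first acyltransferase of glycerolipid synthesis, by -0.89 (SE 0.33), Acacb by -0.83 (SE 0.39) and Acaca by -0.78 (SE 0.35), the latter pair being the acetyl-CoA carboxylases. With both animals left out, Lpin1 was at -1.74, Elovl6 at -0.77, Acly at -0.51, Acaca at -0.45, Gpam at -0.37 and Acacb at -0.24. Leaving out 10 °C animal 6 alone gave -0.96 for Acly, and leaving out 18 °C animal 5 alone gave -0.55 for Gpam and -0.47 for Acacb. Scd1, the main desaturase, differed by -0.07 (SE 0.28). Without 10 °C animal 6 the list median was -0.36 with 5 members passing, without 18 °C animal 5 it was -0.38 with 3, and without both it was -0.15 with 2.

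Of 14 members of glycolysis and the ChREBP targets, 9 were lower and 5 higher, with a median of -0.27. All 5 members at an unadjusted p under 0.05 were lower. Pklr, the liver pyruvate kinase, was at 12.64, 13, 12.24, 11.28 and 13.28 against 14.46, 13.66, 13.97, 14.10 and 13.02. Its groups overlapped only through 10 °C animal 8 and 18 °C animal 7, and the difference was -1.35 (SE 0.38, adjusted p = 0.432). Pfkfb3, which makes a glycolytic activator, differed by -1.37 (SE 0.52), Tkfc, a fructose-pathway kinase, by -0.69 (SE 0.24), Khk, the fructokinase, by -0.47 (SE 0.21) and Gapdh by -0.33 (SE 0.15). Without 10 °C animal 6 and 18 °C animal 5 the list median was -0.16 with 2 passing, and it was -0.16 without 18 °C animal 5 alone. Pfkfb3 was at -0.87 without 18 °C animal 1, and Khk at -0.31 without 10 °C animal 6 and 18 °C animal 5.

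Gluconeogenesis and glucose release had 14 of 18 members lower and 4 higher, with a median of -0.32, and 3 lower and 1 higher at an unadjusted p under 0.05. With 10 °C animal 6 and 18 °C animal 5 left out, the list median was -0.16, and 2 lower and 0 higher passed. Gpt2, an alanine transaminase, differed by -0.76 (SE 0.29), Mdh1, a malate dehydrogenase, by -0.36 (SE 0.15), Creb1, a cAMP-responsive factor, by -0.39 (SE 0.19) and Nr3c1, the glucocorticoid receptor, by 0.37 (SE 0.18). Creb1 was at -0.17 without 10 °C animal 8, Nr3c1 at 0.22 without 18 °C animal 3, and Mdh1 at -0.21 without 10 °C animal 6 and 18 °C animal 5. Pck1 and G6pc, enzymes of glucose output, were not among these members. Pck1 differed by 0.24 (SE 0.28), G6pc by -0.52 (SE 0.45) and the coactivator Ppargc1a by -0.45 (SE 0.33). Ppargc1a was at -0.04 without 10 °C animal 6 and 18 °C animal 5.

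Insulin signalling had 14 of 21 members higher and 7 lower, with a median of 0.10. Rictor, a subunit of a kinase complex that activates Akt, differed by 0.42 (SE 0.17), Irs1, an insulin receptor substrate, by 0.68 (SE 0.32) and Pik3r1, the regulatory subunit of phosphoinositide 3-kinase, by -0.52 (SE 0.23). These 3 were the members at an unadjusted p under 0.05. Irs1 was at 0.43 without 18 °C animal 1, and the list median ran from 0.04 without 18 °C animal 3 to 0.18 without 10 °C animal 2. With 10 °C animal 6 and 18 °C animal 5 left out, 11 members were higher and 10 lower, with a median of 0.11. Insr, the insulin receptor, differed by 0.24 (SE 0.12) and Irs2 by -0.21 (SE 0.41). Of 10 members of glycogen metabolism 5 were higher and 5 lower. Ppp1r3b, a further glycogen-targeting subunit of the same phosphatase, differed by -1.24 (SE 0.54), opposite in sign to Ppp1r3c.

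The targets of PPARA, the fasting-induced regulator of fat oxidation, had 14 higher and 15 lower of 29 and a median of -0.01. Cpt1a, which admits fatty acids to mitochondria, differed by 0.53 (SE 0.22) and Creb3l3 by 0.47 (SE 0.21). These 2 were the members at an unadjusted p under 0.05, 6.9% of the list against 10.4% of all members. The list had 0 higher and 2 lower at that p and a median of -0.10 without 10 °C animal 6. Without 18 °C animal 5 as well, Cpt1a was at 0.29 and Creb3l3 at 0.26. A total of 9 members belonged to brown fat and thermogenic genes, with a median of 0.16 that was 0.03 without 10 °C animal 5 and -0.04 without 10 °C animal 6 and 18 °C animal 5, and Thrsp was the 1 at an unadjusted p under 0.05. The 9 imprinted members had a median of 0.01 and 0 passing. Fgf21, a fasting hormone of this pathway, lay below the member limit at a mean of 2.95 and differed by 0.11 (SE 0.27), and by -0.28 without 10 °C animal 6. Among 23 members of apolipoproteins and lipoprotein handling the median was 0.02. The receptors Lrp1, at 0.43 (SE 0.13), and Scarb1, at 0.56 (SE 0.22), were higher without overlap between the groups, and Cd36 differed by -0.88 (SE 0.39).

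**Figure D3:**
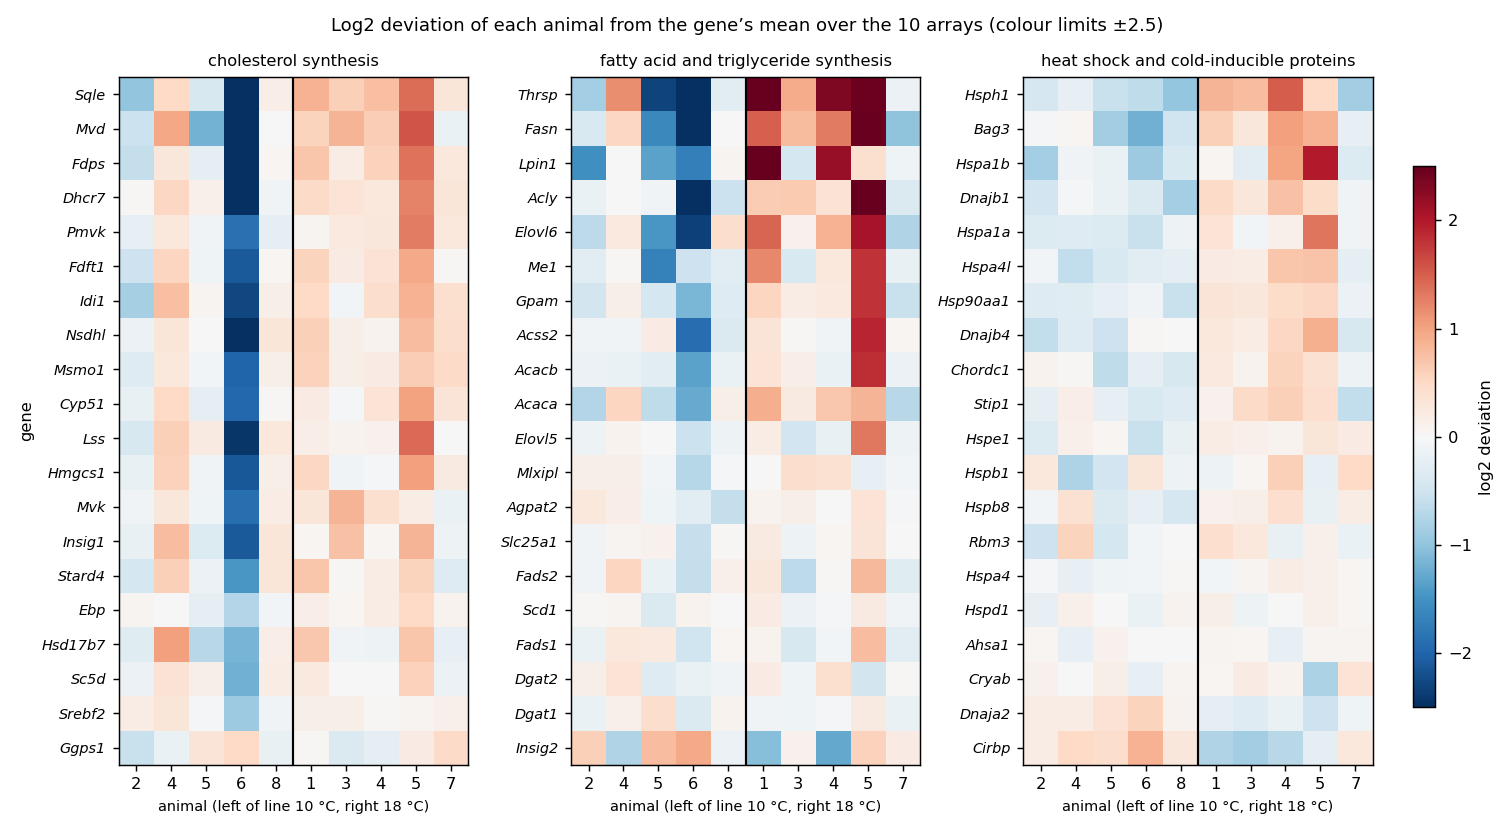
Log2 deviation of each of the 10 animals (columns) from the mean of a gene (rows) over these 10 arrays, for the members of 3 gene lists, with colour limits at ±2.5. In cholesterol synthesis the low values lie in 10 °C animal 6. In the heat shock list low values are spread over the 10 °C animals, with list medians of -0.21 in animal 6 to -0.01 in animal 4. Animal 7 of the 18 °C group is at -0.10 there.

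Of the 3 pathway lists with the lowest medians, the heat shock and cold-inducible proteins moved least when the 2 animals were left out. Heat shock proteins fold and refold other proteins and are induced by the factor HSF1, while Cirbp and Rbm3 are RNA-binding proteins that mild cold induces. Of 20 members, 17 were lower and 3 higher, with a median of -0.38, and it was -0.35 without 10 °C animal 6 and 18 °C animal 5. At an unadjusted p under 0.05 there were 8 lower and 2 higher, 50% of the list against 10.4% of all members. Without the 2 animals there were 4 lower and 2 higher. The list median against the mean of the 10 arrays was -0.01 in 10 °C animal 4 and -0.10 in 18 °C animal 7.

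Hsp90aa1, the inducible cytosolic chaperone of the Hsp90 class, was at 13.22, 13.24, 13.34, 13.46 and 12.99 in the 10 °C animals and at 13.86, 13.82, 13.99, 14.05 and 13.40 in the 18 °C animals. The groups overlapped only through 10 °C animal 6 and 18 °C animal 7, and the difference was -0.58 (SE 0.23, adjusted p = 0.53). Hsph1, a nucleotide exchange factor, differed by -1.11 (SE 0.45), Bag3, a co-chaperone of protein clearance, by -1.02 (SE 0.40), and Dnajb1, a J-domain co-chaperone, by -0.76 (SE 0.26). Hspa1a, the stress-inducible Hsp70, differed by -0.68 (SE 0.32), with 18 °C animal 5 at 7.32 and the other 18 °C animals at 5.90 to 6.33, and by -0.42 without that animal. It shares nearly all of its sequence with its neighbour Hspa1b, so the probes may read both.

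Hspa4l differed by -0.64 (SE 0.26), Dnajb4 by -0.58 (SE 0.27) and Hspe1, the mitochondrial co-chaperonin, by -0.36 (SE 0.16), while its partner Hspd1 differed by -0.06 (SE 0.13). The 2 members that were higher at an unadjusted p under 0.05 were Cirbp and Dnaja2. Cirbp was at 7.41, 7.74, 7.67, 8.10 and 7.52 against 6.48, 6.38, 6.55, 7.02 and 7.51. Only 18 °C animal 7 reached the 10 °C range, and the difference was 0.90 (SE 0.24, adjusted p = 0.408). Dnaja2 differed by 0.55 (SE 0.14) without overlap, and Rbm3 by -0.18 (SE 0.22).

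The windows of 2 heat shock genes are shown because they carry the letters of a heat shock element, GAANNTTC, in capitals, the motif of HSF1. The sequences are RefSeq's, build GRCm38.p6, the 250 bases before the start, 5′ to 3′, from chr17:34972157-34972406 on the minus strand for Hspa1a and chr1:55087898-55088147 on the plus strand for Hspe1.
Hspa1a: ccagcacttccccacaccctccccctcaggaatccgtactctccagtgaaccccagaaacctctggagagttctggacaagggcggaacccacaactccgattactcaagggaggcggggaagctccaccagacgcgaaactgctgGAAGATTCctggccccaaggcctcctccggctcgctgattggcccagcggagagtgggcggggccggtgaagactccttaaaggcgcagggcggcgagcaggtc
Hspe1: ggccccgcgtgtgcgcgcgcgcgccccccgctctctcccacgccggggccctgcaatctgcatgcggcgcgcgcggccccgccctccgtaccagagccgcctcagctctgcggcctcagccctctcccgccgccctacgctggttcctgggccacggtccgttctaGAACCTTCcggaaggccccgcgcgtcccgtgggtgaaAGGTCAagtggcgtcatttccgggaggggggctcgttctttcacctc
The element begins 104 bases before the start of Hspa1a and 84 bases before that of Hspe1, and AGGTCA in Hspe1 is a match to the short RORE motif. Of the 17 list members with a RefSeq window, 9 held the element, 52.9%, against 9.04% of the 27025 genes with a window. The sterol element TCACNCCAC was held by 1 of 16 cholesterol synthesis members with a window, Hmgcs1, against 1.44% of genes. All motifs were searched on both strands over 250 bases before to 50 after each start, and a match is a description of letters.

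Of 27 members of the unfolded protein response, 20 were lower and 7 higher, with a median of -0.18. Dnajb11, a chaperone of the endoplasmic reticulum, at -0.46 (SE 0.19), was the 1 member at an unadjusted p under 0.05. The median was -0.05 without 18 °C animal 4.

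Nuclear-encoded subunits of oxidative phosphorylation were lower by small amounts, 44 of 51 with a median of -0.16. At an unadjusted p under 0.05 there were 10 lower and 0 higher, 19.6% of the list against 10.4% of all members. Cox5b, a subunit of cytochrome c oxidase, was at 14.16, 14.14, 14.09, 14.00 and 14.27 against 14.62, 14.62, 14.49, 14.55 and 14.33. The groups did not overlap, and the difference was -0.39 (SE 0.12, adjusted p = 0.44). Cox7b, also without overlap, differed by -0.29 (SE 0.11) and Cox8a by -0.37 (SE 0.15). Ndufb10 at -0.47 (SE 0.17), Ndufa8 at -0.39 (SE 0.13), Ndufb3 at -0.38 (SE 0.14) and Ndufa9 at -0.33 (SE 0.14) belong to complex I. Cycs, cytochrome c itself, differed by -0.38 (SE 0.13), Atp5h, of the ATP synthase, by -0.39 (SE 0.16), and Sdhc, of complex II, by -0.34 (SE 0.15). All 5 of the 10 °C animals had list medians of -0.11 to -0.03, and of the 18 °C animals only animal 7 was below 0, at -0.05. Sdhc was at -0.16 without 10 °C animal 6 and 18 °C animal 5. Without 10 °C animal 6 and 18 °C animal 5 the list median was -0.11 with 43 of 51 lower and 5 passing.

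The 31 cytosolic ribosomal proteins, another large set of abundant subunits, had a median of 0.03, with 18 higher, 13 lower and 0 at an unadjusted p under 0.05. The 30 proteasome subunits had 15 on each side and likewise 0 passing.

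**Figure D4:**
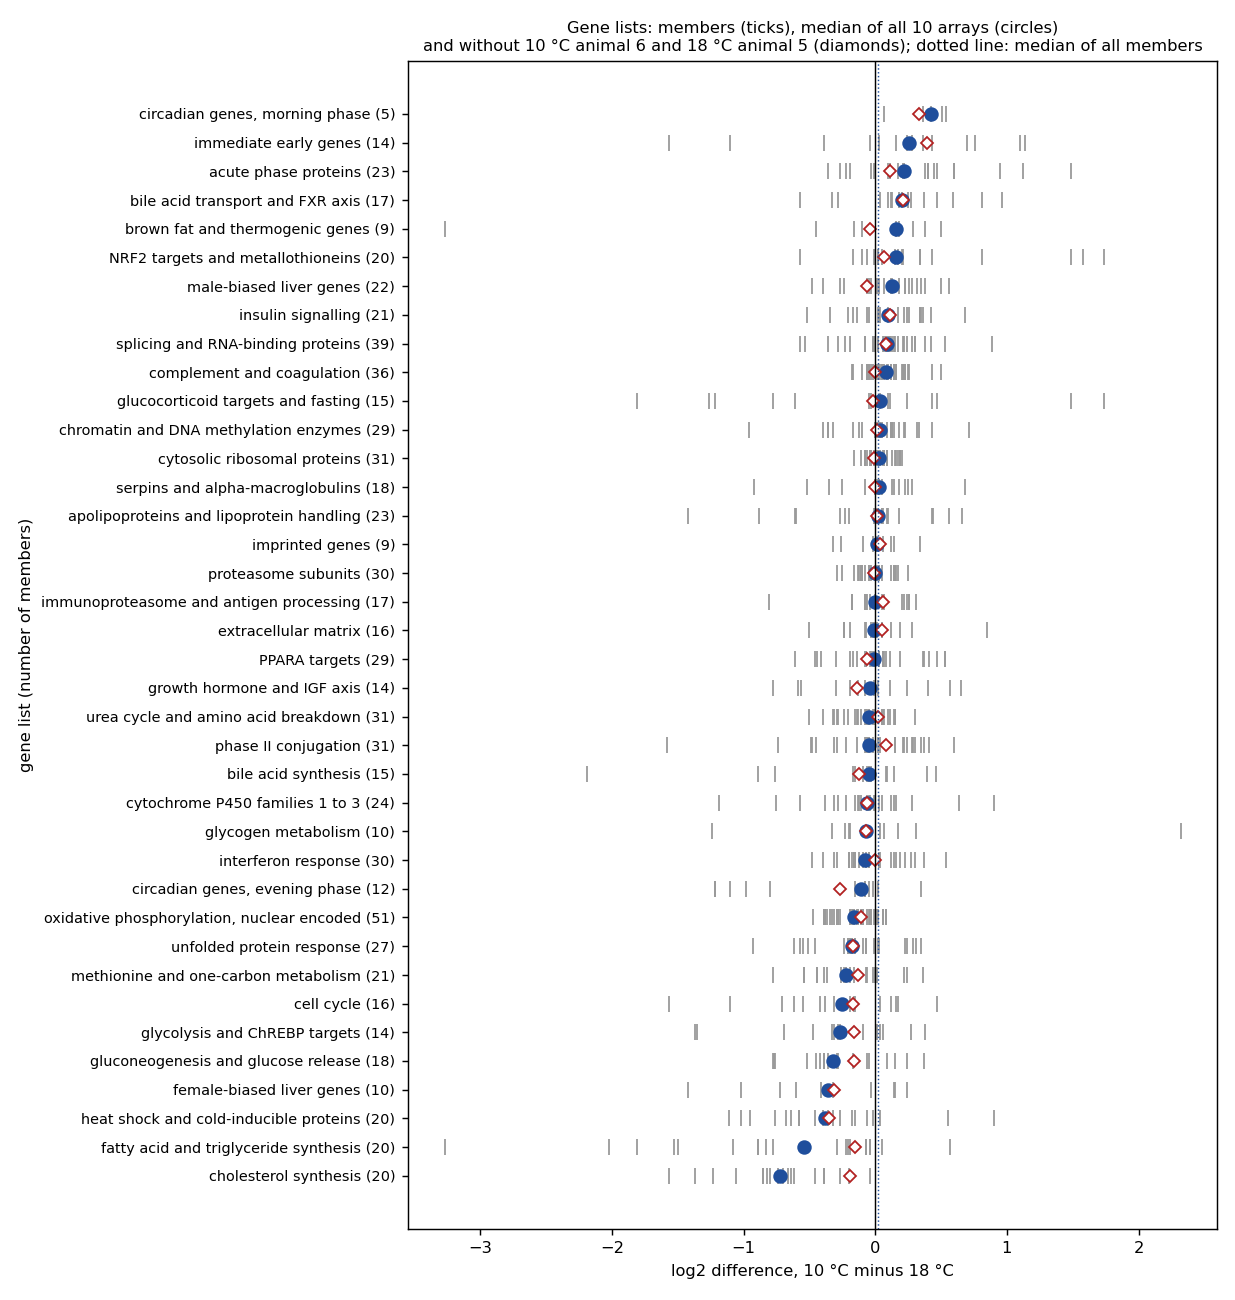
Log2 differences, 10 °C minus 18 °C, of the members of 38 pathway lists (ticks), their median over all arrays (circles) and their median without 10 °C animal 6 and 18 °C animal 5 (open diamonds). The dotted line at 0.02 is the median of all members. The medians of cholesterol synthesis and of fatty acid synthesis move from -0.72 to -0.19 and from -0.54 to -0.15 without the 2 animals, and that of the heat shock list stays at -0.35.

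Targets of NRF2, the regulator of antioxidant enzymes, with the metallothioneins had 15 of 20 members higher and a median of 0.16. At an unadjusted p under 0.05 there were 4 higher and 0 lower, 20% of the list against 10.4% of all members. Gclc, the catalytic subunit of glutathione synthesis, was at 15.26, 14.84, 15.54, 16.06 and 15.19 against 14.36, 14.45, 14.14, 14.82 and 15.06. The groups overlapped through 10 °C animal 4 and 18 °C animal 7, and the difference was 0.81 (SE 0.23, adjusted p = 0.417). Osgin1 differed by 1.58 (SE 0.47), Gclm, the modifier subunit, by 0.43 (SE 0.16) and Txnrd1, a thioredoxin reductase, by 0.34 (SE 0.16). Mt1, a metallothionein, had a difference of 1.74 (SE 0.96). It was at 16.71 in 10 °C animal 6 and at 9.89 to 11.09 in the other 10 °C animals, and the difference was 0.46 without animal 6. The list median without that animal was 0.04, with 2 members passing, and Gclm was at 0.26 and Txnrd1 at 0.19.

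Acute phase proteins, which the liver secretes in inflammation, had 17 of 23 members higher and a median of 0.22, with 4 higher at an unadjusted p under 0.05. These were Saa3 at 0.60 (SE 0.23), Itih3 at 0.40 (SE 0.16), Stat3, the factor that drives them, at 0.45 (SE 0.21) and Hp, haptoglobin, at 0.38 (SE 0.18). In 10 °C animal 6 the list median was 0.60 above the mean of the 10 arrays, and Hp was at 19.15 there against 18.00 to 18.34 in the other 10 °C animals. Without that animal the list median was 0.11 and 0 members were higher at an unadjusted p under 0.05, with 1 lower. Saa3 was then at 0.38, Stat3 at 0.22 and Hp at 0.17. Of 36 members of complement and coagulation 27 were higher, with a median of 0.08 and 3 passing, 8.33% against 10.4% of all members. F5 differed by 0.43 (SE 0.15), C8a by 0.50 (SE 0.22) and Proc by 0.25 (SE 0.12), and C8a was at 0.31 without 10 °C animal 6. Without that animal and 18 °C animal 5, 18 members were higher, 18 lower and 0 passing, with F5 at 0.25, C8a at 0.28 and Proc at 0.16.

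Mug2, a protease inhibitor of the alpha-macroglobulin family, was at 14.42, 14.78, 15.28, 14.58 and 14.59 against 14.18, 14.04, 14.14, 13.81 and 14.11. The groups did not overlap, and the difference was 0.68 (SE 0.17, adjusted p = 0.388), with 15.06 ± 0.30 at 23 °C and 15.05 ± 0.27 at 30 °C. The 18 °C mean of 14.06 ± 0.15 was thus the lowest of the 4. Serpinb1a, an elastase inhibitor of the same list, differed by -0.92 (SE 0.36). The interferon response had 12 higher and 18 lower of 30, with Ifit1 at -0.40 (SE 0.16) the 1 passing, and Psmb9, at -0.81 (SE 0.26), was the 1 passing of 17 members of the immunoproteasome and antigen processing. Psmb9 was at -0.50 without 10 °C animal 6 and 18 °C animal 5.

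Cytochrome P450 families 1 to 3 had 9 higher and 15 lower of 24, with a median of -0.06. Beside the Cyp3a pair, Cyp2c23 differed by 0.28 (SE 0.12) and Cyp2c38 by -1.19 (SE 0.37). Among 31 enzymes of phase II conjugation, Gstt3 differed by -1.58 (SE 0.60), Gstk1 by -0.45 (SE 0.16), Ugt2b5 by 0.35 (SE 0.15) and Gstm1 by 0.30 (SE 0.14). Gstt3 was at -0.86 without 10 °C animal 6 and 18 °C animal 5, and Ugt2b5 at 0.20 without 10 °C animal 6. Many genes of these families are expressed differently in male and female liver under growth hormone. Of 22 male-biased members 15 were higher, with a median of 0.13, and 0.00 without 10 °C animal 8 and -0.06 without 10 °C animal 6 and 18 °C animal 5. Of 10 female-biased members 7 were lower, with a median of -0.36 that was -0.02 without 18 °C animal 5 and -0.66 without 18 °C animal 3. Cyp2b9, the member with the largest difference, was at 4.94, 6.27, 3.80, 3.84 and 4.26 against 7.67, 5.44, 5.99, 7.0 and 4.12. The groups overlapped, and the difference was -1.42 (SE 0.55). Igf1 differed by -0.13 (SE 0.12), Jak2, a growth hormone receptor kinase, by 0.40 (SE 0.16), and the IGF-binding proteins Igfbp2 and Igfbp3 by 0.65 (SE 0.31) and -0.56 (SE 0.27). Igfbp3 was at -0.37 without 10 °C animal 6 and 18 °C animal 5.

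Methionine and one-carbon metabolism had 16 of 21 members lower and a median of -0.22, with 5 lower and 1 higher at an unadjusted p under 0.05. Bhmt, which remethylates homocysteine from betaine, was at 19.12, 18.85, 18.75, 19 and 19.10 against 19.28, 19.24, 19.31, 19.71 and 19.49. All 10 °C animals were below all 18 °C animals, and the difference was -0.44 (SE 0.16, adjusted p = 0.509). Its neighbour Bhmt2 differed by -0.44 (SE 0.15), and Dmgdh and Sardh, which use up the products of betaine in turn, by -0.54 (SE 0.21) and -0.54 (SE 0.20). Cth, the cystathionine lyase, differed by -0.78 (SE 0.29), and Mtr, the methionine synthase, by 0.36 (SE 0.17). Without 10 °C animal 6 and 18 °C animal 5 the list median was -0.13 with 2 passing, Cth was at -0.40 and Bhmt2 at -0.29. The median was also -0.13 without 10 °C animal 6 alone. In the urea cycle and amino acid breakdown 20 of 31 members were lower with a median of -0.05, and Asl at -0.50 (SE 0.22) and Mccc1 at -0.31 (SE 0.14) passed.

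Splicing and RNA-binding proteins had 26 of 39 members higher and a median of 0.09. At an unadjusted p under 0.05 there were 5 higher and 1 lower, 15.4% of the list against 10.4% of all members. Srsf5, a splicing factor, was at 12.38, 12.94, 12.80, 12.85 and 12.62 against 11.82, 11.63, 11.84, 11.31 and 12.55. Only 18 °C animal 7 reached the 10 °C range, and the difference was 0.89 (SE 0.25, adjusted p = 0.428). Ddx17, an RNA helicase, differed by 0.53 (SE 0.16), Pnisr by 0.42 (SE 0.15), Srsf4 by 0.38 (SE 0.15), Hnrnpd by 0.30 (SE 0.14) and Tra2a by -0.57 (SE 0.25). Ddx17 was at 0.32, Hnrnpd at 0.17 and Tra2a at -0.30 without 10 °C animal 6 and 18 °C animal 5. Among 29 chromatin and DNA methylation enzymes 20 were higher, with 4 higher and 2 lower at an unadjusted p under 0.05. The passing members were 20.7% of the list, against 10.4% of all members. The list median was 0.04. Without 10 °C animal 6 and 18 °C animal 5 it was 0.01, with 15 members higher and 14 lower. Of these, 2 higher and 1 lower passed. Kdm6b, a histone demethylase, differed by 0.71 (SE 0.22), the deacetylase Sirt1 by 0.43 (SE 0.16) and Mbd1, which binds methylated DNA, by -0.96 (SE 0.35), and by -0.62 without 18 °C animal 1.

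Immediate early genes, which respond within minutes to stress and growth signals, had 14 members, 10 of them higher, with a median of 0.26 that was 0.08 without 10 °C animal 8. Ccn1 was at 9.73, 9.63, 8.29, 9.20 and 9.47 against 7.47, 8.47, 7.66, 8.23 and 8.79. The groups overlapped through 10 °C animal 5, and the difference was 1.14 (SE 0.36). Jun differed by 1.10 (SE 0.44), Junb by 0.76 (SE 0.34) and Klf6 by 0.70 (SE 0.32), the 4 members at an unadjusted p under 0.05. Klf6 was at 0.45 without 10 °C animal 6. These genes can also respond to how tissue is taken, which the labels do not describe per animal and was not tested.

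Circadian genes differed widely between animals of the same group. Dbp, which peaks toward evening in mouse liver, was at 11.60, 15.41, 10.52, 11.83 and 14.87 against 15.87, 12.66, 15.79, 13.54 and 12.46, and Arntl, of the opposite phase, at 8.62, 6.37, 8.83, 8.09 and 6.21 against 4.5, 8.63, 5.56, 8.43 and 8.43. Within each group some animals had high Dbp with low Arntl and others the reverse, with 10 °C animals 4 and 8 and 18 °C animals 1 and 4 on the first side. The differences were -1.22 (SE 1.11) and 0.51 (SE 0.88), and Nr1d1 differed by -0.02 (SE 0.44) and Per2 by -0.98 (SE 0.51). Of 12 evening-phase members 10 were lower with a median of -0.11, which ran from -0.55 to 0.10 with 1 animal left out at a time, and all 5 morning-phase members were higher with a median of 0.42, which ran from 0.12 without 18 °C animal 1 to 0.62 without 18 °C animal 5. Of the 10 animals, 18 °C animals 1 and 4 had the highest Cyp7a1 and Lpin1 and the lowest Ppp1r3c. The 10 °C animals 4 and 8, also on the first side, were below all 18 °C animals for Cyp7a1 and above them for Ppp1r3c. Their Lpin1 deviations from its mean over the 10 arrays, -0.01 and 0.06, were the highest of their group. The part of circadian phase in these differences was not tested. Glucocorticoid targets and fasting genes had 15 members, 8 higher and 7 lower, with a median of 0.04. At an unadjusted p under 0.05 there were 3 lower and 0 higher. Tsc22d3, a glucocorticoid target that also cycles, differed by -1.22 (SE 0.42) and Zbtb16, a further glucocorticoid target, by -1.26 (SE 0.59).

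**Figure D5:**
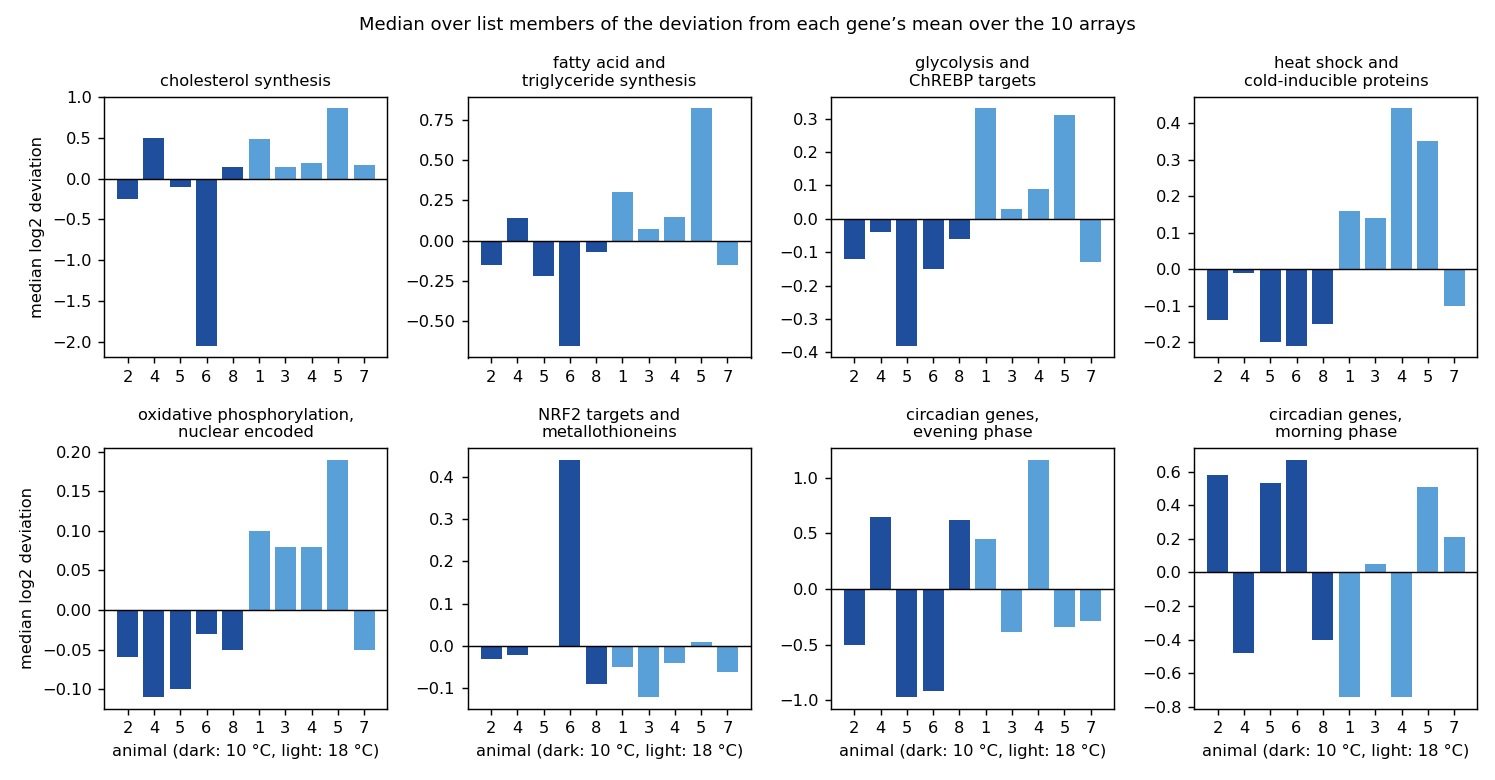
Median over list members of the log2 deviation from the mean of each gene over the 10 arrays (vertical axis), for each animal of the 10 °C group (dark) and the 18 °C group (light), in 8 gene lists. The vertical axes differ between panels. The longest bar in the cholesterol synthesis and NRF2 panels is that of 10 °C animal 6, at -2.05 and 0.44, the circadian panels vary within groups, and in oxidative phosphorylation all 10 °C animals are below 0.

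Markers of other liver cells gave few differences. In a whole liver sample, fewer cells of a type and less RNA per cell cannot be told apart. Of 13 Kupffer cell and macrophage members 9 were higher, with a median of 0.07. Marco, a scavenger receptor, was at 4.81, 4.25, 5.02, 4.64 and 4.69 against 6.82, 4.82, 4.54, 7.74 and 4.80, with 18 °C animals 1 and 5 far above the rest and a difference of -1.06 (SE 0.43), and of -0.56 without animal 5. Of 15 sinusoidal endothelium members 8 were higher, with a median of 0.01, and Lyve1, a hyaluronan receptor, differed by -1.09 (SE 0.53). Stellate cell and fibroblast markers had 9 members, 5 higher and 4 lower. Their median was 0.12, or 0.06 without 18 °C animal 3. The growth factor Hgf was at 0.67 (SE 0.22), Reln at 0.50 (SE 0.17) and Acta2 at -0.90 (SE 0.44). Hgf was higher without overlap between the groups.

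Few markers of blood and fat cells passed the limit. Of 18 lymphocyte markers 2 were members, and of 10 adipocyte markers 2, among them Pparg at -0.63 (SE 0.28). Of adipocyte markers, Adipoq and Ucp1 had means of 2.78 and 2.90, below the limit. Pericentral hepatocyte markers had a median of 0.07, with Axin2, a Wnt target, at 1.07 (SE 0.27) and Cyp7a1 lower. Periportal markers had a median of 0.00, with Cdh1 at 0.62 (SE 0.26) and Aldh1b1 at -0.90 (SE 0.40), the latter at -0.49 without 10 °C animal 6 and 18 °C animal 5. The 16 extracellular matrix members had 7 higher and 9 lower, with a median of -0.01. Among them Mmp14, a membrane-bound matrix protease, was higher without overlap at 0.85 (SE 0.24), and Fn1 differed by 0.28 (SE 0.12). Of 16 cell cycle members 11 were lower, and Rrm2 at -0.71 (SE 0.27), Mki67 at -0.62 (SE 0.27) and Mcm2 at -0.55 (SE 0.25) passed. Mki67 was at -0.40 without 18 °C animal 5.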

How the data were processed

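Liver RNA of 20 mice was hybridised to Affymetrix arrays. The deposited table holds log2 expression values, which per the submitters' processing notes were made with RMA (background correction, quantile normalisation and probe summary) and the Transcriptome Analysis Console, with versions and genome build not given in the sources used here. Quantile normalisation hides a shift of all transcripts together. Of 28846 rows, 6640 were control rows, 5222 of them negative. The platform annotation gave 1 symbol to 19572 clusters, several to 0 and none to 2634, and all 19572 matched the RefSeq table, used for names and promoter sequences. Some genes of the lists are not reported here.

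A linear model with 1 mean per group over the 20 arrays was run per cluster (R 4.3.3, limma 3.58.1, lmFit then eBayes), with two-sided p-values adjusted over 22206 clusters. The fit was tested on simulated data. The number of arrays limits the precision. Members and 51 lists (38 pathway, 13 cell type) were chosen with earlier results of these data known, and lists are described without a test. Named genes are the 12 members per direction with the smallest p, the 8 per direction with the largest differences without overlap, up to 4 per list and those at an unadjusted p under 0.05 where counted, a fixed set, and 5 most like Pik3ap1 or Cyp7a1. Array measures were tested by exact permutation over 252 splits. Alternatives covered the arrays used, variance model, weights, covariates, normalisation, filters, the replicate block and leaving out arrays. The 10 °C and 18 °C titles share animal numbers 4 and 5, which no label ties to a litter or day, and the animals were not treated as pairs.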

Additional observations from a re-analysis of the deposited data

Results flagged for a closer look

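Of 346 groups of 5 animals tested (the named genes in the 10 °C and the 18 °C group), 23 held 1 animal whose gap to the nearest other exceeded Dixon's 95% limit, and chance alone flags about 5%. No cause was tested. The values of the other 4 animals are given as a range.

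In 10 °C animal 6, Mt1 was at 16.71 (others 9.89 to 11.09), Cln6 at 8.49 (6.03 to 6.26), Acly at 11.05 (13.58 to 14.12), Acacb at 6.14 (7.20 to 7.33), Khk at 13.67 (14.16 to 14.33), Hp at 19.15 (18.00 to 18.34), Gclm at 16.53 (15.57 to 15.77), Ugt2b5 at 16.51 (15.69 to 15.86), Lrp1 at 14.54 (14.09 to 14.22) and Fgf21 at 4.64 (2.55 to 2.99). In 18 °C animal 5, Ppargc1a was at 10.44 (8.74 to 8.92), Acacb at 9.33 (7.32 to 7.83), Pdzk1ip1 at 8.50 (6.96 to 7.29), Cyp3a25 at 15.52 (15.88 to 16.01), Ddx17 at 10.78 (11.26 to 11.39) and Creb1 at 6.38 (6.55 to 6.62).

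Among other animals of the 10 °C group, Pik3ap1 in animal 2 was at 11.43 (11.70 to 11.80), Mbd1 in animal 4 at 9.82 (8.93 to 9.13), Hgf in animal 4 at 8.50 (7.75 to 7.96), Scd1 in animal 5 at 19.20 (19.57 to 19.65) and Creb1 in animal 8 at 5.27 (6.17 to 6.48). In the 18 °C group, Herc3 in animal 3 was at 4.58 (5.01 to 5.15) and Khk in animal 7 at 14.02 (14.69 to 14.85).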

How the results depend on the processing

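The count of clusters at an adjusted p (limma) under 0.05 stayed at 0 under the alternatives run, except that 1, Pisd-ps3, passed without 23 °C animal 23 (-1.75, adjusted p = 0.0446), so leaving out 1 array at a time gave 0 to 1. Members at an unadjusted p under 0.05 numbered 975, and 617 above the 95th percentile of the negative control rows, 1611 over all named clusters and 577 without 10 °C animal 6 and 18 °C animal 5 (chosen after seeing the data). Leaving out 1 array at a time gave 744 to 1091, with the lowest count without 18 °C animal 5. Members without overlap numbered 197, ranged from 263 to 443 with 1 array left out, where smaller groups overlap less by construction, and were 392 without both animals. With the animal number as a replicate block, 704 members passed at an unadjusted p under 0.05, 345 higher and 359 lower, so that 49.0% were higher against 59.5%. The deviations of same-numbered animals from their group means correlated at 0.189 for number 4 and -0.049 for number 5, and the labels do not say whether a number marks a litter or day. Quantile normalisation of the clusters alone gave 53.6% higher.

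Signs turned for small differences. Nr1d1 was 0.14 with the negative control rows as a covariate. Without 10 °C animal 5, 10 °C animal 6, 18 °C animal 3 or 18 °C animal 5 it was 0.08 to 0.20. Without both 10 °C animal 6 and 18 °C animal 5 it was 0.20. Fgf21 was -0.14 with the replicate block, -0.28 without 10 °C animal 6 and -0.19 without both. Arntl was -0.14 without 18 °C animal 1, Irs2 0.02 without 18 °C animal 5, and Scd1 0.01 without 10 °C animal 5. With 1 array left out at a time, these ran from -0.14 to 0.89 for Arntl, -0.28 to 0.25 for Fgf21, -0.51 to 0.02 for Irs2, -0.22 to 0.20 for Nr1d1 and -0.12 to 0.01 for Scd1. The cause was not tested. Dim probes and 5 arrays a group limit what could be detected.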

Other observations

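Some members outside the lists were noticed after their values were seen. Beside Id1, Id2 and Atoh8, which BMP signals induce in other settings, Id3 differed by 1.48 (SE 0.85), the inhibitor Smad6 by 0.43 (SE 0.22) and Hamp, the iron hormone hepcidin, by 0.47 (SE 0.45). Their groups overlapped. The ligand Bmp2 differed by -0.40 (SE 0.14) without overlap and Bmp6 by 0.08 (SE 0.25).

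Beside Gm14403, the similarly named predicted genes Gm14288, Gm14326 and Gm14393 differed by -0.81 (SE 0.27), -0.58 (SE 0.19) and -0.63 (SE 0.23), and Clec2f, a relative of Clec2d, by -0.55 (SE 0.18), each without overlap. Whether the probes tell such related transcripts apart was not tested.

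Among large differences with overlapping groups, Slc25a25, a mitochondrial nucleotide carrier, differed by 1.85 (SE 0.72), Cyp26a1, which degrades retinoic acid, by -1.97 (SE 0.75), Aacs, an acetoacetyl-CoA synthetase, by -1.88 (SE 0.71), and Noct, a rhythmically expressed phosphatase, by -1.71 (SE 0.82). Adjusted p-values (limma) of the genes named here were 0.388 to 0.972.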
